A study of Caenorhabditis elegans with 4 samples.

Results

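Pseudogenes of Caenorhabditis elegans were followed in dissected gonads of worms mutant for cde-1. They were taken as the genes with the biotype pseudogene in the WBcel235 gene table that matched a named probe by gene identifier and had a ratio on both arrays of at least 1 stage. This gave 125 pseudogenes out of 509 with a named probe, and out of 3263 genes of any kind that met the same condition among 7489 with a named probe. C06C3.5, a further pseudogene, was left out by the rule. The mutant carried the cde-1 allele tm1021, a deletion, and was set against the wildtype strain N2, both in aged adults and in young adults. Each stage and genotype had 1 RNA sample, made from 250 excised gonads, so the tissue held germ cells together with somatic gonad. A stage was hybridised on 2 arrays of 2 colours with the dyes exchanged, and these 2 arrays count as 1 replicate. The cde-1 gene had no named probe, which leaves its own level unanalysed here, and other differences between the 2 strains cannot be told apart from the allele.

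A pseudogene is a copy of a gene, or a once active gene, that has gathered lesions and is annotated as no longer coding for a full protein. Many in C. elegans are still transcribed, and in the germline a good part of them are matched by small RNAs made by RNA-dependent RNA polymerases and bound by the worm-specific Argonautes called WAGOs, which silence transposons, repeats and aberrant transcripts. CDE-1 is a terminal uridylyltransferase that adds uridines to the small RNAs bound by CSR-1, another Argonaute, whose targets are mainly genes expressed in the germline. Of the 509, 504 carry a sequence name only, and the gene table gives no function for them. The exceptions among the 125 were cest-15 and cest-29, which are named after the carboxylesterase family.

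All values are log2 ratios, where 1 log2 unit is a doubling, and a positive one is likely, though not surely, higher in the mutant than in the wildtype. The deposited values came with no stated direction. The orientations, known from the channel labels, also differed in number format. Wherever the mutant was in Cy5 every nonzero value used scientific notation (12418 aged, 11541 young), and wherever it was in Cy3 none did (12704 aged, 10775 young). The format does not show which arrays, if any, were turned before deposit. That the mutant-in-Cy3 arrays were the ones already turned was assumed and was not tested. The 2 orientations of a stage were averaged as deposited, since across genes they ran the same way (Pearson 0.33 over 2964 aged and 0.57 over 2521 young gene values, with the cDNAs shared). With the opposite direction all signs below would be exchanged, and had no array been turned, the averages would hold the dye effect. Read that second way, the aged difference between pseudogenes and coding genes given below was -0.0395, and 1 pseudogene in place of 8 passed 1 log2 unit in both stages. In RNA from whole gonads, fewer cells of a type and less RNA per cell cannot be told apart. None of the 28 marker genes of germ cells, oocytes, sperm, somatic gonad, intestine, muscle, hypodermis and neurons had a named probe, so the makeup of the tissue was not checked.

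A smaller share of pseudogenes than of protein-coding genes gave a ratio. A ratio was present on both aged adult arrays for 112 of the 509 pseudogenes (22.0%) and for 2837 of 6927 protein-coding genes (41.0%). On both young adult arrays it was present for 80 pseudogenes (15.7%) and 2432 protein-coding genes (35.1%). Ratios on all 4 arrays were available for 67 pseudogenes, while 45 had them in aged adults only and 13 in young adults only. A further 168 pseudogenes had some ratio but no complete stage, and 216 had none. An absent ratio is a deposited value of exactly 0, which need not mean that no RNA was there, and the signal behind it was not used here.

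The chromosomes differed in how many of their pseudogenes gave a ratio. Chromosome V, which carries the largest number of them on the array, had a ratio on both aged arrays for 23 of 155 (14.8%), against 34.4% of its protein-coding genes, and on both young arrays for 10 (6.45%), against 28.7%. On chromosome I the aged shares were 15.7% of 51 pseudogenes and 49.4% of coding genes. The X chromosome, which is known to be largely silent in much, though not all, of the C. elegans germline, stood at the other end. There 24 of 69 pseudogenes had a ratio on both aged arrays (34.8%), against 31.5% of its protein-coding genes, and 16 had one on both young arrays (23.2%), against 26% of coding genes. In both stages X had the lowest share of the 6 chromosomes among coding genes and the highest among pseudogenes. In young adults the lead among pseudogenes was narrow, with 20 of 90 (22.2%) on chromosome II. In each stage 5 of the X pseudogenes with a ratio were named from 1 genomic clone, Y73B3A.

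**Figure D1:**
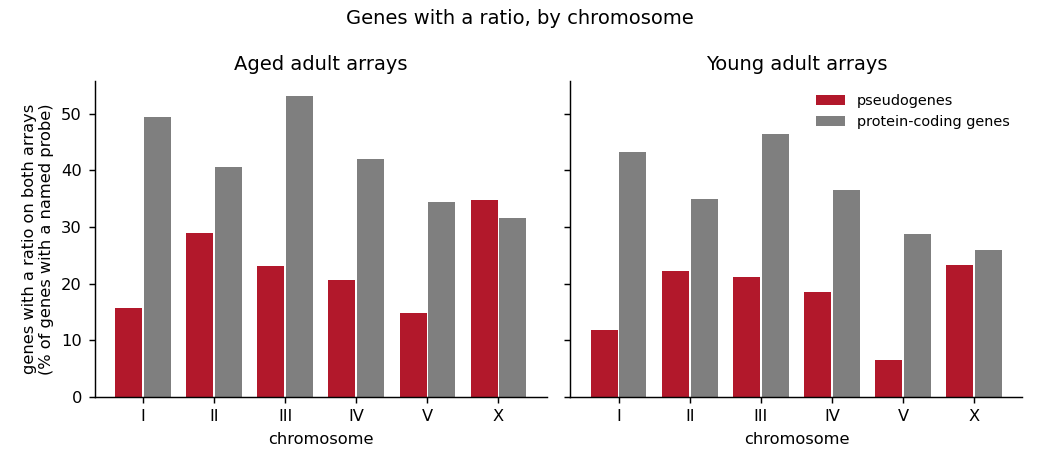
Share of genes with a named probe that had a ratio on both arrays of a stage (y axis, percent), by chromosome (x axis), for pseudogenes in red and protein-coding genes in grey; aged adult arrays on the left and young adult arrays on the right. Pseudogenes lie well under coding genes on the autosomes and close to them on X, at 34.8% and 31.5% in aged adults.

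In aged adults the pseudogenes lay lower than the protein-coding genes. Their median log2 ratio was -0.18 (n = 112, quartiles -0.69 and 0.25), against 0.17 for coding genes (n = 2837, quartiles -0.36 and 0.70), a difference of -0.34. The median on the array with the mutant in Cy5 was 0.16 for pseudogenes and 0.35 for coding genes, and on the array with the mutant in Cy3 it was -0.23 and 0.027. The pseudogenes were therefore the lower class on either array, by -0.19 and -0.26, although the sign of their own median depended on the array. The 67 pseudogenes with all 4 ratios had an aged median of -0.13, against 0.19 for such coding genes, and the 45 with a complete aged stage alone had -0.27, against 0.057. Median ratios of pseudogenes were below 0 on chromosomes II to V and X, between -0.048 on III and -0.26 on II, and 0.17 on chromosome I, where 8 were measured. The coding medians ran from 0.12 to 0.198 over the chromosomes. Both arrays were above 0 for 26 pseudogenes (23.2%) and below 0 for 34 (30.4%). Among coding genes 38.3% were above and 23.9% below, and among all named genes 37.6% and 24.1%.

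In young adults the classes had nearly the same middle. The pseudogene median was 0.085 (n = 80, quartiles -0.59 and 0.69), against 0.056 for coding genes (n = 2432, quartiles -0.44 and 0.58). The difference was 0.028, and on single arrays it was -0.0098 with the mutant in Cy5 and 0.034 with it in Cy3, which disagree in sign. Both arrays were above 0 for 28 pseudogenes (35%) and below 0 for 24 (30%), against 37.3% and 33.3% of coding genes, and 37.3% and 33.2% of all named genes. The 16 pseudogenes on X had a young median of 0.48, against 0.12 for coding genes on X, and the 11 on chromosome III had -0.39, against 0.015. With 1 RNA sample per genotype and stage, none of these differences between classes has a replicate check.

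**Figure D2:**
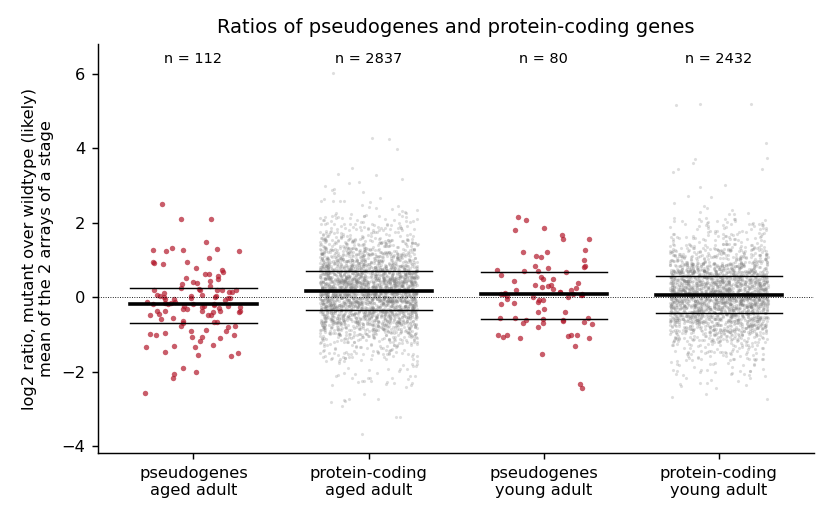
Log2 ratio of each gene (y axis, mean of the 2 arrays of a stage) for pseudogenes in red and protein-coding genes in grey, in aged and then young adults (x axis); thick lines mark medians and thin lines quartiles, and n is the number of genes. The aged pseudogene median of -0.18 lies under the coding median of 0.17, while the young medians of 0.085 and 0.056 nearly coincide.

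Pseudogene ratios moved between the orientations. They had opposite signs on the 2 arrays of a stage in 52 of 112 aged cases (46.4%) and 28 of 80 young cases (35%), against 37.8% and 29.4% of coding genes. The median absolute difference between the orientations was 0.90 log2 units in aged and 0.52 in young pseudogenes, against 0.73 and 0.45 in coding genes. Arrays of the same cDNAs thus differed by about as much as many of these ratios measure. Counts within a stage below therefore ask that both arrays pass 1 log2 unit with one sign, while counts over both stages use stage means. T02C12.4, the one pseudogene with ratios from more than 1 probe, had -0.63 and 1.56 on the young arrays from one probe and 0.070 and -0.16 from the other, which differ in sign on each array.

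Large ratios in aged adults were found on both sides. Above 1 on both arrays were 6 of 112 pseudogenes (5.36%), against 6.8% of coding genes and 6.75% of all named genes. Below -1 on both arrays were 7 (6.25%), against 2.4% of coding genes and 2.56% of all named genes. The highest was T08D2.3 on the X chromosome, at 3.20 with the mutant in Cy5 and 1.80 with the dyes exchanged, the order kept below. Y111B2A.27 on chromosome III had 1.76 and 2.45, and Y53F4B.8 on chromosome II had 1.88 and 2.31. These 3 stand apart from the next pseudogenes, whose stage means were at most 1.48. F08B4.3 on chromosome IV had 1.48 and 1.13, and F18A11.6 on chromosome II had 1.31 and 1.35. The sixth, Y41D4B.18 on chromosome IV with 1.37 and 1.11, was named only after its values were seen.

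The low side in aged adults was led, among pseudogenes with close orientations, by F20B6.7 on X, at -2.23 (mutant in Cy5) and -2.14 (mutant in Cy3). C52B11.4, also on X, had -1.87 and -1.91. F12A10.2 on chromosome II had -1.45 and -1.55. In these 3 both arrays gave nearly the same value. K12B6.8 on chromosome V had -1.25 and -1.94, and Y48A6C.1 on chromosome III had -2.0 and -1.10. F59B2.11 on chromosome III had -1.38 and -1.60, and Y9D1A.2 on chromosome II had -1.12 and -1.56. The lowest stage mean, -2.59 for F22D3.5 on chromosome II, came from -4.42 on the array with the mutant in Cy5 and -0.76 on the other. Y39B6A.21 and ZC317.1, both on chromosome V and singled out after their values were seen, had -4.45 and -4.12 on that same array but 0.33 and 0.092 with the mutant in Cy3. All 3 large values thus rest on 1 array. CE7X_3.1 on X, with -1.91 and -0.79, passed -1 on that array alone as well.

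In young adults, 7 of 80 pseudogenes (8.75%) were above 1 on both arrays, against 7.2% of coding genes and 7.3% of all named genes. Below -1 on both arrays were 3 (3.75%), against 4.65% of coding genes and 4.6% of all named genes. F47B7.6 on X was the highest, with 2.22 and 2.07 on its 2 arrays. Y9D1A.2 had 2.14 and 2.03, and Y73B3B.5 on X had 2.07 and 1.64. Y24F12A.3 on chromosome IV had 1.58 and 2.01; it had 2 probes, of which 1 gave no ratio on any array. R03G8.4 on X had 2.15 and 1.18, and F20B6.7 had 1.498 and 1.62. W09C5.9 on chromosome I had 1.32 and 1.12.

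The lowest young ratios belonged to Y73B3A.16 on X, with -2.62 and -2.27, and to C18H2.2 on chromosome III, with -1.46 and -3.22. F08B4.3 had -1.39 and -1.23. These were the only 3 below -1 on both young arrays, and the arrays of C18H2.2 lay more than 1 log2 unit apart. F43D2.2 on chromosome V had -0.78 and -2.29, K11H3.4 on chromosome III had -1.32 and -0.89, and F55A3.7 on chromosome I had -0.81 and -1.32, so each passed -1 on 1 array alone. The 89 pseudogenes outside those named by the rule had stage means of -2.06 to 1.25 in aged adults (median -0.17, 78 measured) and of -1.01 to 1.09 in young adults (median 0.074, 49 measured).

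**Figure D3:**
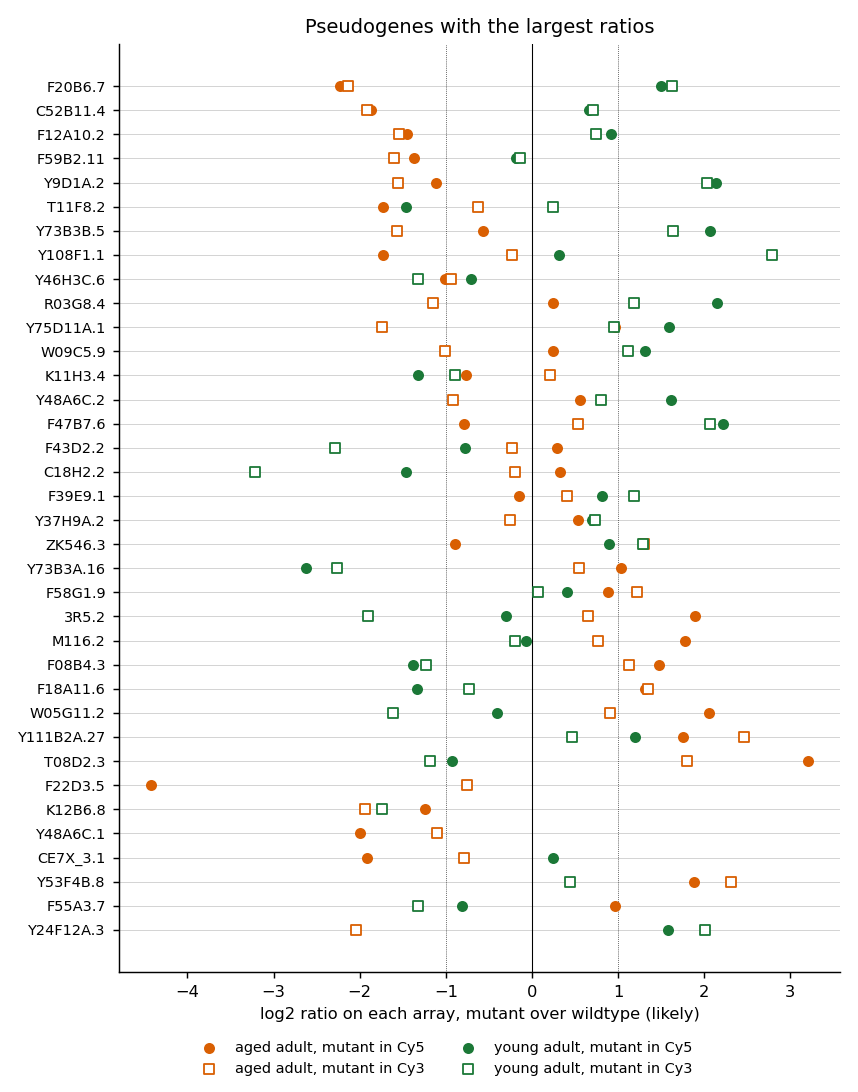
Log2 ratio on each array (x axis) of the 36 pseudogenes named by the rule (y axis); orange marks aged adults and green young adults, filled circles the mutant in Cy5 and open squares the mutant in Cy3, and the last rows lack a complete stage. Orange and green marks lie on opposite sides of 0 for F20B6.7, C52B11.4, F12A10.2, Y9D1A.2, F08B4.3 and T08D2.3, among others.

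The pseudogenes with large ratios in one stage mostly did not keep them in the other. Of the 67 with a ratio on all 4 arrays, 5 (7.46%) had the same sign on all of them, 22 (32.8%) had one sign on both aged arrays and the other on both young arrays, and 40 had opposite signs on the 2 arrays of at least 1 stage. Among coding genes the first share was 16.3% and the second 32.9%, and among all named genes they were 16.1% and 32.8%. The share with opposed stages was therefore close to that among all named genes, and the share with one sign was lower. These shares leave out C06C3.5 by the rule, a pseudogene that had high means in both stages. Of the 22, 12 were positive in aged and negative in young adults, and 10 the reverse.

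Stage means past 1 log2 unit in both stages were found for 8 pseudogenes (11.9% of 67), against 7.64% of coding genes and 7.83% of all named genes. All 8 were opposed between the stages, whereas 105 of the 164 coding genes past 1 in both stages were; as a share of all tested, opposed ones were 4.89% of coding genes and 5.13% of all named genes. The rule bears on this count, since C06C3.5, which it leaves out, would have been a further one and had high means in both stages. T08D2.3 had 3.20 and 1.80 on the aged arrays and -0.92 and -1.18 on the young ones, with the mutant in Cy5 first. F08B4.3 had 1.48 and 1.13 in aged adults, against -1.39 and -1.23 in young adults. F18A11.6 had 1.31 and 1.35 in aged adults, against -1.33 and -0.73 in young adults. Of these 3, F08B4.3 was past 1 log2 unit in size on all 4 arrays. W05G11.2 on chromosome III had 2.06 and 0.91 in aged adults, against -0.41 and -1.62 in young adults. 3R5.2, also on chromosome III, had 1.90 and 0.65 in aged adults, against -0.30 and -1.90 in young adults. In both of the last 2 the orientations lay more than 1 log2 unit apart in each stage, with one sign.

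The other 3 were low in aged and high in young adults. F20B6.7 had -2.23 and -2.14 on the aged arrays and 1.498 and 1.62 on the young ones, the widest gap between stages among the 67 pseudogenes at -3.74 (aged minus young). Y9D1A.2 had -1.12 and -1.56 in aged adults, against 2.14 and 2.03 in young adults. Y73B3B.5 had -0.57 and -1.57 in aged adults, against 2.07 and 1.64 in young adults. The 14 pseudogenes with opposed stages outside the 8 had stage means of -1.89 to 1.28 in aged adults and -2.44 to 1.55 in young adults. Y73B3A.16 had the widest gap of these, with 1.04 and 0.54 in aged adults, against -2.62 and -2.27 in young adults. C52B11.4 had -1.87 and -1.91 in aged adults, against 0.66 and 0.70 in young adults, and F12A10.2 had -1.45 and -1.55 in aged adults, against 0.92 and 0.75 in young adults. M116.2 on chromosome IV had 1.78 and 0.77 in aged adults, against -0.069 and -0.20 in young adults, and Y108F1.1 on X had -1.73 and -0.24 in aged adults, against 0.32 and 2.79 in young adults. In both, the orientations of a stage lay more than 1 log2 unit apart. With 1 RNA sample for a genotype at a stage, no difference between stages was tested.

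The study's design text treats the stages as near duplicates. Over the 67 pseudogenes, however, aged and young stage means were inversely related (Pearson -0.45, Spearman -0.47), and over the 2147 coding genes the same measures were -0.12 and -0.24. The genes of a stage share its RNA samples and arrays, so the values are descriptions and the difference between the classes was not tested. The SD of the aged minus young difference was 1.58 log2 units in pseudogenes and 1.29 in coding genes.

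**Figure D4:**
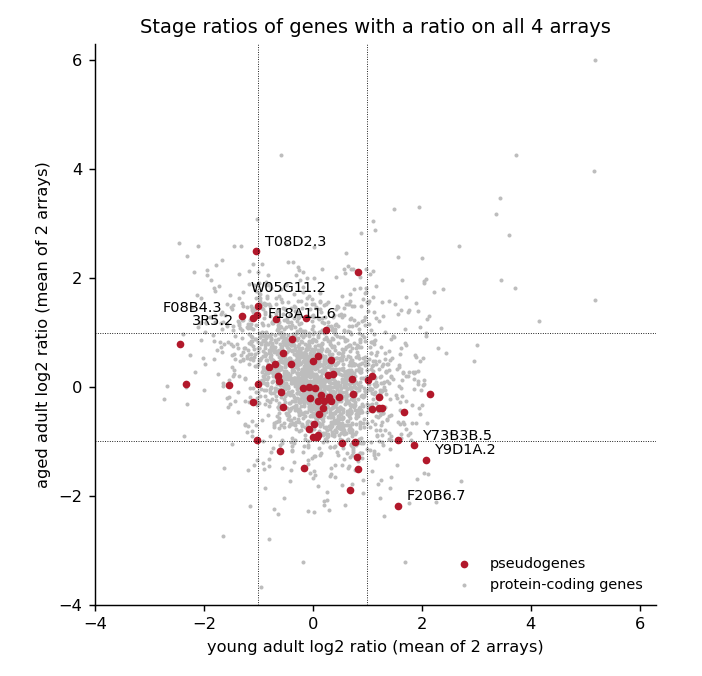
Aged adult log2 ratio (y axis) against young adult log2 ratio (x axis), each the mean of 2 arrays, for 67 pseudogenes in red and 2147 protein-coding genes in grey; dotted lines mark 1 and -1. The 8 labelled pseudogenes lie past 1 log2 unit in both stages, 5 at upper left and 3 at lower right. None of the 67 lies past it in both stages with one sign, and C06C3.5, left out by the rule, is not shown.

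The 5 pseudogenes with one sign on all 4 arrays were Y111B2A.27 and F58G1.9 above 0, and Y46H3C.6, F59B2.11 and F52C6.13 below 0, the last of them named only after its values were seen. Y111B2A.27 had 1.76 and 2.45 in aged adults, against 1.20 and 0.47 in young adults. F58G1.9 on chromosome II had 0.88 and 1.22 in aged adults, against 0.40 and 0.066 in young adults. Both thus had higher ratios in aged than in young adults. Y46H3C.6 on chromosome V had ratios of nearly equal size in the stages, with -1.01 and -0.94 in aged adults, against -0.71 and -1.33 in young adults. F59B2.11 had -1.38 and -1.60 in aged adults but -0.19 and -0.14 in young adults, and the stage means of F52C6.13 were -0.21 in aged and -0.050 in young adults.

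Mutant was tested against wildtype over both stages with limma on the 2 stage means of each gene, over all 2222 genes with a ratio on all 4 arrays. At an adjusted p under 0.05, 0 genes were higher and 0 lower (0% in each direction), so 0 of the 67 pseudogenes passed. Centring, scaling or quantile normalization of the arrays gave 13, 13 and 14 higher genes, of which 0 were among the 67, while the left-out pseudogene C06C3.5 was called under each. At an unadjusted p under 0.05, 1 pseudogene was higher and 0 lower, against 2.75% of all genes tested on the high side and 0.495% on the low side. The 1 was Y111B2A.27, with a mean ratio of 1.47 ± 0.56 (limma SE, n = 2 stages), an unadjusted p of 0.0427 and an adjusted p of 0.9998 by limma. The median of the mean ratios was -0.0017 over the 67 pseudogenes and 0.092 over the 2147 coding genes. Means above 0 were found for 33 of the 67, against 1248 of the 2147 coding genes and 1284 of all 2222 genes tested. Next among the high means were F47B7.6 at 1.01 ± 0.69 and T08D2.3 at 0.72 ± 0.90, whose SEs reflect aged and young values far apart. The other 9 of the 12 highest means were ZK546.3 (0.65), F58G1.9 (0.64), R03G8.4 (0.60), M116.2 (0.57), F39E9.1 (0.56), Y48A6C.2 (0.51), Y75D11A.1 (0.44), Y37H9A.2 (0.43) and W09C5.9 (0.42). On the low side C18H2.2 had -1.14 ± 0.71, Y46H3C.6 had -0.997 ± 0.49 and T11F8.2 had -0.90 ± 0.50. The remaining low means were -0.83 for Y73B3A.16, -0.82 for F59B2.11, -0.75 for F43D2.2, -0.69 for K11H3.4 and -0.61 for C52B11.4. The adjusted p of each of these was 0.9998 by limma. T11F8.2 on chromosome IV had -1.73 and -0.63 in aged adults, against -1.46 and 0.24 in young adults, so 1 of its 4 arrays was above 0. ZK546.3 had -0.89 and 1.30 in aged adults, against 0.89 and 1.29 in young adults, and its 1 negative value was an aged one, with the mutant in Cy5.

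The genes lying beside the pseudogenes were examined next. By the gene table, 15 of the 125 pseudogenes overlapped an annotated protein-coding gene, among them F20B6.7, F22D3.5, W09C5.9, Y37H9A.2, Y48A6C.2, ZK546.3 and cest-15. F20B6.7 overlapped F20B6.9, a coding gene with -2.04 and -2.18 on the aged arrays and 2.18 and 2.35 on the young ones. The pair ran together on all 4 arrays, and whether each probe reads only its own gene was not tested. In aged adults 3 overlapping pairs were measured, and the other pairs had stage means of opposed sign. T23E1.2 had -0.25 and T23E1.3 had 1.32, while Y37H9A.2 had 0.14 and ccct-1 had -0.28. The young stage means of Y37H9A.2 and ccct-1 were 0.71 and 0.017. Y9D1A.2 stood next to the long noncoding RNA gene Y9D1A.1 without overlapping it. Y9D1A.1 had -1.57 and -3.17 in aged adults, against 1.68 and 1.90 in young adults, the same signs as the pseudogene on every array. The nearest coding gene with a ratio, D1022.4, had stage means of -0.83 in aged and -1.20 in young adults. The second of these was opposite in sign to the pseudogene. Y73B3B.5 stood next to the coding gene Y73B3B.1, which had -0.95 and -0.056 in aged adults, against 0.20 and 1.14 in young adults, with the signs of the pseudogene on every array and smaller stage means. T08D2.3 stood next to the coding gene T08D2.5, which had 0.14 and -0.47 in aged adults, against -0.60 and -1.16 in young adults. These were of the pseudogene's sign on 3 of 4 arrays and far smaller in aged adults. For the other 4 of the 8 no neighbour had a ratio, and whether the neighbours had named probes was not listed. Of the nearest coding genes with a stage mean, those of F08B4.3 had the opposite sign (C49C8.1 at -0.61 aged, fdr-1 at 0.85 young). So did exc-12, nearest to 3R5.2 (-0.066 aged, 0.96 young). F42G4.2, nearest to F18A11.6, shared its sign in aged adults (1.49) but not in young adults (0.89). F54C4.4, nearest to W05G11.2, shared its sign in both (0.16 aged, -0.51 young).

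**Figure D5:**
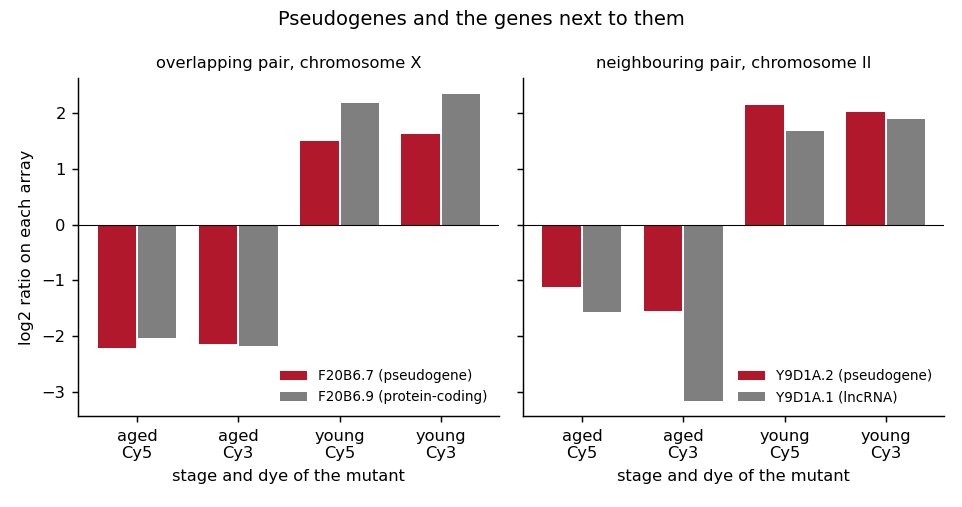
Log2 ratio (y axis) on each array (x axis: stage and dye of the mutant) for the pseudogenes F20B6.7 and Y9D1A.2 in red and the gene overlapping or next to each in grey. Both members of each pair are below 0 on the aged arrays and above 0 on the young arrays.

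Over all pseudogenes, the nearest coding gene with a ratio in the same stage had the same sign as the pseudogene for 54 of 112 in aged adults and for 47 of 80 in young adults. The ratios of these pairs correlated at 0.19 (Pearson) and 0.091 (Spearman) over 112 pairs in aged adults. Over 80 pairs in young adults the same measures were -0.032 and -0.052. Several pseudogenes shared a nearest coding gene, such as Y73B3A.1, so the pairs are not independent. The share of equal signs among other gene pairs was not computed, so these counts have nothing to be set against. Pseudogenes named from one genomic clone were set side by side. Of the 125 pseudogenes, 5 were named from the clone Y73B3A on X. All had aged stage means above 0 and 4 of them had young stage means below 0. However, 3 of the 5 (Y73B3A.2, Y73B3A.3 and Y73B3A.9) had opposite signs on the 2 aged arrays. Y73B3A.16 had the widest gap between stages among them; the other 4 had aged means of 0.22 for Y73B3A.2, 0.11 for Y73B3A.21, 0.42 for Y73B3A.3 and 0.061 for Y73B3A.9, and young means of 0.28, -0.61, -0.40 and -1.01 in that order. The 3 of the 125 from Y57A10A on chromosome II had young means of -0.078, -0.55 and -0.72, and the 2 of them with an aged mean had -0.76 and -0.37. Opposite signs on the arrays of a stage were found for Y57A10A.3 in young adults (0.20 and -0.36) and Y57A10A.6 in aged adults (0.11 and -0.84). These 2 clones were picked because they held at least 3 of the 125 pseudogenes, and sequence shared within a clone was not examined.

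Named relatives of larger families were few. cest-15 had -1.42 and -0.64 on the aged arrays and 1.21 and -0.13 on the young ones, and cest-29 had -1.59 and 0.28 on the aged arrays alone. Each had opposite signs on the 2 arrays of a stage. Of 47 genes of small RNA pathways and RNA surveillance, 4 had a named probe, and 0 of the 4 passed the limma test in either direction. pid-3, a subunit of the complex that processes piRNA precursors, had 3.32 and 1.28 in aged adults, against -0.27 and -0.46 in young adults. The stage means of pid-2, pid-4 and pid-5, which act in piRNA-directed silencing, were 0.39, 0.43 and 0.48 in aged adults, against -0.52, -0.069 and -1.33 in young adults. The aged arrays had opposite signs for pid-2 (1.12 and -0.34) and for pid-5 (1.11 and -0.15), but not for pid-4 (0.41 and 0.45). The young mean of pid-5 came from -0.043 and -2.62.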

How the data were processed

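The authors deposited a single table, with a value for each of 22562 probes on each of 4 arrays. Per the submitters' processing notes the authors used Agilent Feature Extraction, with no version; for dye normalization, background correction and direction the sources used here state nothing. These deposited numbers were read as log10 ratios, that program's convention, and brought to log2 by a factor of 3.32. No scanner signals were at hand to check the base: had it been log2, all sizes would shrink by that factor and counts past a fixed size would differ. Values of exactly 0 (43.7% to 52.2% of an array) were left out. Probes were named from the platform annotation and matched by gene identifier to the WBcel235 table: 7718 probes had 1 symbol, 0 had several, 14844 were unnamed here, and 7691 matched. A gene's value on an array was the mean of its probes there. For each gene, limma 3.58.1 (lmFit and eBayes, R 4.3.3) compared its 2 stage means with 0, using Benjamini-Hochberg adjustment over all genes tested; the code was tested on simulated data. Nothing in the labels describes separate cultures, so p-values measure only the spread between 2 RNA samples per genotype, which differ in age. The named pseudogenes were the 12 highest and 8 lowest means over both stages, the 8 highest and 8 lowest stage means with one sign in each stage, and those past 1 log2 unit in both stages with their neighbours, piRNA genes not counted. The members, the lists and this rule were chosen with earlier results of these data known. Alternatives were centring, scaling and quantile normalization of the arrays, zeros kept, swapped arrays turned, each array left out, matching by name, a filter on orientation differences, other size thresholds, stage as a random block and, added after seeing the data, C06C3.5 included. Probe and promoter sequences were not used here.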

Additional observations from a re-analysis of the deposited data

Results flagged for a closer look

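For 13 of the named pseudogenes both aged adult arrays had one sign and both young adult arrays the other. The difference was not tested for want of a second RNA sample at either stage, and such opposition was found in 32.8% of pseudogenes and 32.9% of coding genes with a ratio on all 4 arrays. Aged minus young log2 ratios were above 0 for T08D2.3 (3.55), Y73B3A.16 (3.23), F08B4.3 (2.61), W05G11.2 (2.50), 3R5.2 (2.38), F18A11.6 (2.36) and M116.2 (1.41). They were below 0 for F20B6.7 (-3.74), Y9D1A.2 (-3.42), Y73B3B.5 (-2.92), C52B11.4 (-2.58), Y108F1.1 (-2.54) and F12A10.2 (-2.33).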

How the results depend on the processing

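Of the alternatives, the inclusion of C06C3.5 was added after seeing the data. Of the 67 pseudogenes, which leave out C06C3.5, the number passing limma over both stages stayed at 0 under every alternative run except an unadjusted p under 0.05, which gave 1, although the calls over all genes moved: 13 higher after centring, 13 after scaling, 14 after quantile normalization, 3 with stage as a random block and 61 higher and 11 lower unadjusted. Leaving out 1 array, with the single orientation treated as no more variable than a mean of both, gave 9 to 16 higher and 0 to 4 lower. The aged difference of -0.34 between pseudogenes and coding genes was -0.275 after scaling, -0.269 with orientations within 1 log2 unit, -0.259 to -0.192 leaving out 1 array, 0 with zeros kept, where most values are 0, and -0.0395 with swapped arrays turned. The aged pseudogene median of -0.18 was 0.107 with swapped arrays turned and -0.232 to 0.156 leaving out 1 array. The young difference of 0.028 was 0.0616 with orientations within 1 log2 unit, -0.00914 with swapped arrays turned and -0.0098 to 0.0339 leaving out 1 array. Aged counts of 6 above and 7 below were 14 and 23 past 0.5 log2 units, 0 and 1 past 2, and 11 to 23 and 21 to 25 where 1 array alone decided; 2 were below with swapped arrays turned. Young counts of 7 above and 3 below were 17 and 12 past 0.5 log2 units, 2 and 1 past 2, 15 and 10 to 12 on 1 array, 0 and 0 with swapped arrays turned, and 5 below after scaling. The 8 pseudogenes past 1 in both stages, all opposed, were 5, all opposed, with orientations within 1 log2 unit, 1 with 0 opposed when swapped arrays were turned, 8 to 11 with 7 to 10 opposed leaving out 1 array, 10 with 9 opposed after centring and with zeros kept, and 9 with 8 opposed when C06C3.5 was included. With swapped arrays turned, as if the values had been deposited unturned, ratios changed sign in aged adults for C52B11.4 (0.0199), F12A10.2 (0.0498), F18A11.6 (-0.0166), F59B2.11 (0.111), K12B6.8 (0.347), Y111B2A.27 (-0.349), Y53F4B.8 (-0.214) and Y9D1A.2 (0.223), and in young adults for C18H2.2 (0.88), F20B6.7 (-0.0615) and Y24F12A.3 (-0.218). Further stage ratios changed sign with the arrays turned, since the turned array held the larger value. Among them were the young ratios of T08D2.3, 3R5.2, W05G11.2, Y108F1.1, F43D2.2 and F55A3.7 and the aged ratio of Y73B3B.5. Means over both stages changed sign for C18H2.2 (0.571), F39E9.1 (-0.233), F43D2.2 (0.507), F47B7.6 (-0.291), F59B2.11 (0.0434), Y46H3C.6 (0.138), Y73B3A.16 (0.034) and ZK546.3 (-0.646). The mean of Y75D11A.1 ran from -0.233 to 1.12 leaving out 1 array, with the negative value when the mutant-in-Cy5 aged array was dropped. The causes were not tested; the turned arrays change signs by construction. Of 599 values of named pseudogenes under 11 alternatives, 525 kept their direction and call, 54 moved by more than the spread between orientations and 20 changed sign. That count of 20 leaves out the further stage ratios named above. No paired analysis was possible because samples carry no replicate numbers, beyond the pairing of mutant and wildtype that every within-array ratio holds. No spot intensities were used here, so dim and bright ratios were weighted alike.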
